A study of Mus musculus with 2 samples.

Results

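The genes Mir103-1, Mir103-2 and Mir107 are the 3 microRNA genes that lie in introns of the pantothenate kinase genes Pank3, Pank2 and Pank1. They were taken by their symbols in GENCODE M21, the annotation of the count tables, and make up 3 of the 2202 microRNA genes counted. Small RNA was sequenced in 2 libraries of hippocampal tissue from adult male mice, 8 to 10 months old, whose strain is labelled 5xFAD/CAST. 5xFAD names a transgenic line used to model Alzheimer disease, and CAST names a wild-derived mouse strain. The labels do not name the transgenes, their promoter or the number of animals behind each library. They list separate tissue records but 1 donor record, so every test below compares these libraries, whose spread may be technical, and none compares genotypes, ages or treatments. Both libraries belong to 1 group, and no control group was analysed here.

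A microRNA is cut from a hairpin RNA, and bases 2 to 8 of the mature strand, the seed, guide it to its target messages. miR-103 and miR-107 share their seed and are known for dampening insulin sensitivity in liver and fat and for repressing Dicer, the enzyme that makes mature microRNAs. miR-107 is known for targeting the message of BACE1, the protease that starts the release of amyloid beta from its precursor. The host genes encode pantothenate kinases, which carry out the rate-controlling step of coenzyme A synthesis from vitamin B5, and loss of human PANK2 causes a neurodegeneration with iron in the brain.

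The mature sequences are shown because they determine which reads can be placed at 1 gene. They were taken from RefSeq (GRCm38.p6), 5′ to 3′, with the seed in capitals. All 3 genes were found there, and their hairpins were identical in sequence and position to those of GENCODE M21. The strands from the 3′ side of the hairpin (3p) are these:

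miR-103-3p, from both Mir103-1 and Mir103-2: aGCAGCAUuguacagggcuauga

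miR-107-3p: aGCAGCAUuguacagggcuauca

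miR-103-3p and miR-107-3p differ by the single substitution G22C, counted from 1 at the 5′ end (miR-103-3p base first). The strands from the 5′ side (5p) differ more between the genes:

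miR-103-1-5p: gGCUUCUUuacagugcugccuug

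miR-103-2-5p: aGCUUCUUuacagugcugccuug

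miR-107-5p: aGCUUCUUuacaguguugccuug

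Between miR-103-1-5p and miR-103-2-5p the difference is G1A, and between miR-103-2-5p and miR-107-5p it is C16U. The seed of the 3p strands, GCAGCAU, occurred in 3 of the 1738 mature entries of the RefSeq table (0.173%), which are those of these 3 genes. The seed of the 5p strands, GCUUCUU, likewise occurred in 3 entries, all from the same genes.

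The whole hairpins are given with the 3p strand in capitals, to show that the loop and the outer ends are where the genes diverge most:

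Mir103-1: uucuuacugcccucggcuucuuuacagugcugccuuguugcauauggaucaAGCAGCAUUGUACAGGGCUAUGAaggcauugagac

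Mir103-2: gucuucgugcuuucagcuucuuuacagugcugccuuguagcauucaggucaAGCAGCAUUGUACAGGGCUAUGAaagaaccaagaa

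Mir107: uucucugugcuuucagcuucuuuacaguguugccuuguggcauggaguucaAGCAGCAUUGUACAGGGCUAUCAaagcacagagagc

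In global alignments, Mir103-1 and Mir103-2 were identical at 80.2% of 86 positions, Mir103-1 and Mir107 at 80.5% of 87, and Mir103-2 and Mir107 at 83.9% of 87. The copies that make the same mature miR-103-3p were therefore no more alike over the whole hairpin than either was to Mir107. The longest stretch without a difference was 27 bases between Mir103-1 and Mir103-2 and 24 bases between Mir107 and either of them. No other microRNA gene of the tables shared a stretch of 20 bases with any of the 3. In each hairpin the 5p strand spans positions 15 to 37 and the 3p strand positions 52 to 74. The predicted folding energy was -35.8 kcal/mol for Mir103-1, -31.8 for Mir103-2 and -41.2 for Mir107 (RNAfold, a prediction without a measured error), and GC content was 47.7%, 45.3% and 47.1%.

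The hairpins occupy the same place in their host genes (mm10, GENCODE M21). Mir103-1 (ENSMUSG00000065553.1; chromosome 11, 35782396 to 35782481, plus strand) lies in intron 5 of the 7-exon Pank3 transcript, 688 bases after exon 5 and 966 bases before exon 6. Mir103-2 (ENSMUSG00000065563.1; chromosome 2, 131288052 to 131288137, plus strand) lies in intron 5 of the 7-exon protein-coding Pank2 transcript, 454 bases after exon 5 and 5261 bases before exon 6. Mir107 (ENSMUSG00000065594.1; chromosome 19, 34820687 to 34820773, minus strand) lies in intron 5 of the 7-exon Pank1 transcripts, 326 bases after exon 5 and 6869 bases before exon 6. Each hairpin is thus on the strand of its host and follows exon 5 of the host in these transcripts, while other transcripts of Pank2 and Pank1 number that intron differently. No gene other than the host overlaps any of the hairpins, and the nearest other microRNA genes lie 165471, 247654 and 70074 bases away from Mir103-1, Mir103-2 and Mir107.

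**Figure D1:**
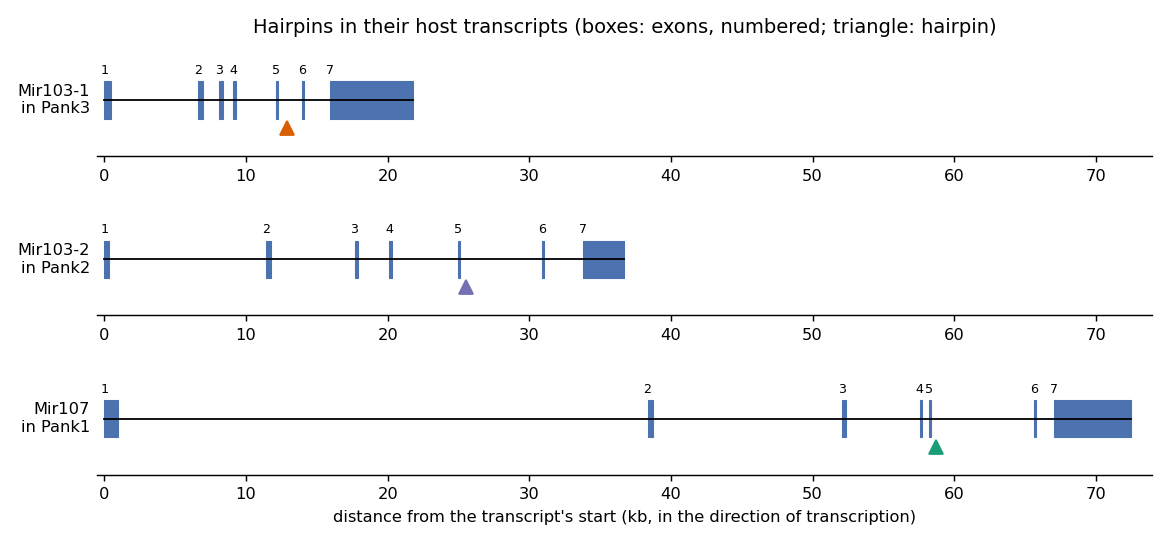
Position of each hairpin (triangle) in a 7-exon protein-coding transcript of its host gene, with exons as numbered boxes and the distance from the transcript's start in kilobases on the x axis. All 3 hairpins follow exon 5, at 688, 454 and 326 bases from it, although the Pank1 transcript is the longest.

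Sequence identity sets which reads of this family can be assigned to 1 gene. A read that begins at the first base of a 3p strand matched all 3 hairpins up to a length of 21 bases. From 22 bases on, a miR-107-3p read matched Mir107 alone, so the full 23-base strand belongs to 1 gene. A miR-103-3p read still matched both Mir103-1 and Mir103-2 at its full 23 bases and matched 1 gene only from 25 bases, 2 bases into the flanking hairpin. The 5p strands matched 1 gene at every length examined, from 16 bases up. When the first base was moved by up to 2 bases either way at lengths of 20 to 24, 3 of 25 such reads from the miR-103-3p strand matched 1 gene for each copy, against 15 of 25 for miR-107-3p. For the 5p strands this held for 18 of 25 reads of each miR-103 copy and for 25 of 25 reads of Mir107. These are exact matches to annotated microRNA genes on either strand, and other places in the genome were not searched.

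**Figure D2:**
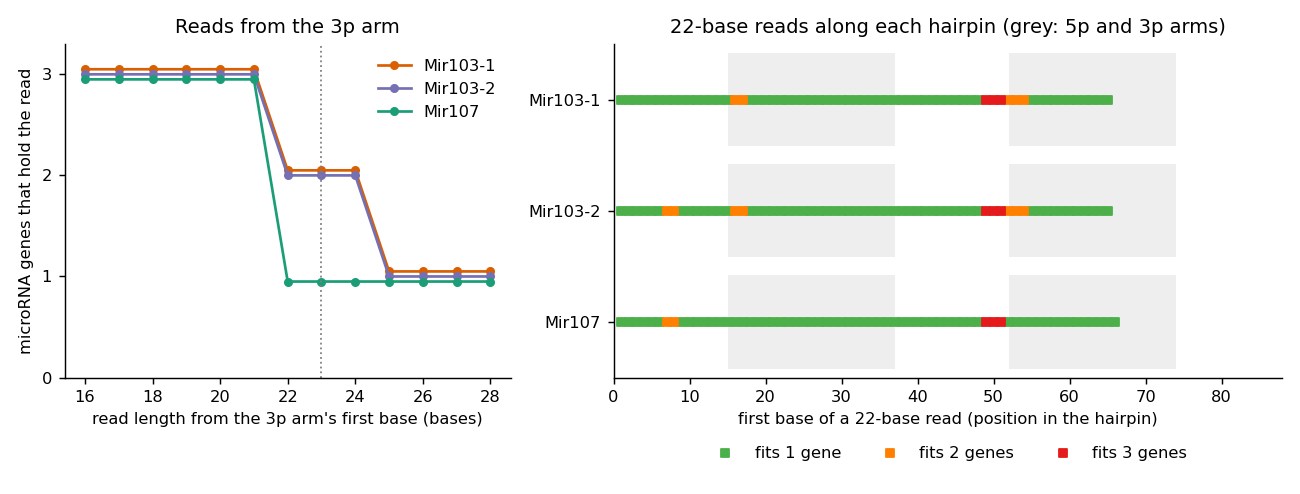
Left: number of microRNA genes that hold a read starting at the first base of the 3p strand (y axis, lines shifted slightly so that they can be told apart) against read length (x axis), with the 23-base mature length dotted. Right: the same number for 22-base reads by their first base along each hairpin, where only miR-107-3p matches 1 gene at the start of the 3p strand.

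The libraries held 9713924 and 8551453 reads, of which 3421977 (35.2%) and 2820468 (33.0%) were assigned to a microRNA gene, and the 389 genes with 10 or more reads in each are called detected here. Reads that fit several places made up 41.6% and 38.2% of all reads and carry no gene name. Reads that fit several copies of a microRNA gene are taken to be among them, an assumption, since the treatment of copies was not given. Among microRNAs typical of neurons, Mir132, Mir137, Mir128-1 and Mir128-2 were detected at 1489 to 12751 CPM (counts per 1000000 assigned reads). The neuronal miR-124 has 3 gene copies, for which the assigned reads numbered 5 in either library at Mir124a-1 and 0 at Mir124a-2 and Mir124a-3. Since reads that fit several copies are taken to carry no gene name, these counts do not measure the miR-124 in the tissue. The muscle and liver markers together took 0.0051% of assigned reads and the erythroid markers 0.0054%.

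Mir107 received nearly all reads assigned to the family. It had 9488 reads in replicate 1 and 6629 in replicate 2, or 2773 CPM (exact Clopper-Pearson 95% interval 2717 to 2829) and 2350 CPM (2294 to 2408), with a mean of 2561 ± 299 CPM (SD, n = 2). Replicate 1 was the higher library, and the intervals, which cover counting error only, do not overlap. In tissue, fewer cells that make a microRNA and less of it per cell cannot be told apart.

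Mir103-2, the copy in Pank2, had 95 and 48 reads. These are 27.8 CPM (22.5 to 33.9) in replicate 1 and 17.0 CPM (12.5 to 22.6) in replicate 2, with a mean of 22.4 ± 7.60 CPM (SD, n = 2). Replicate 1 was again higher, and here the intervals overlap slightly. Mir103-1, the copy in Pank3, had 9 and 8 reads, 2.63 CPM (1.20 to 4.99) and 2.84 CPM (1.22 to 5.59), with a mean of 2.73 ± 0.15 CPM (SD, n = 2). It fell just short of 10 reads in either library and so did not enter the tests across genes, although both values lie above the level that a count of 0 allows (0.877 and 1.06 CPM, 3 reads). Both copies are uncertain as measures of a gene's output, since reads that fit more than 1 copy are taken to carry no gene name. All reads of the 3 genes lay on the gene's own strand, and the opposite-strand column held 0 reads for them.

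**Figure D3:**
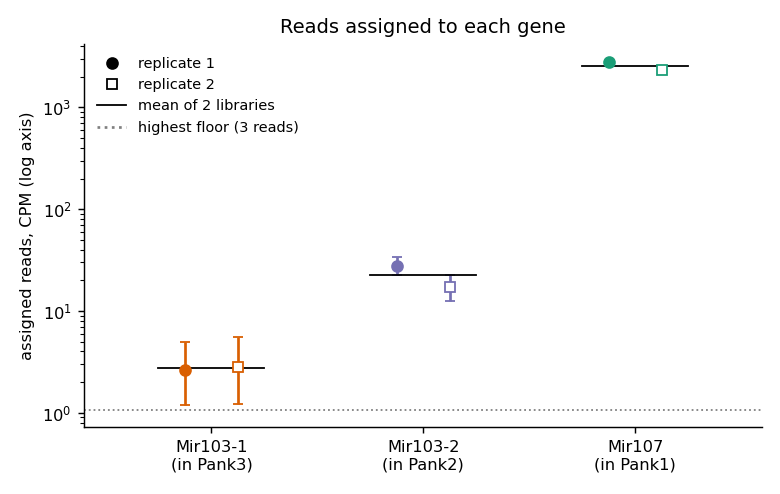
CPM (log axis) of the 3 genes in replicate 1 (filled circles) and replicate 2 (open squares), with exact 95% intervals, the mean of the libraries as a bar and the higher of the 2 floors (1.06 CPM) dotted. The genes are separated by more than the spread between libraries, from 2.73 CPM for Mir103-1 to 2561 CPM for Mir107.

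The order Mir107, Mir103-2, Mir103-1 held in both libraries, and the library ranges of the 3 genes did not overlap. Hairpin lengths are 86 bases for Mir103-1 and Mir103-2 and 87 for Mir107. Of the 25 reads examined at each 3p strand, 15 matched 1 gene for Mir107, against 3 for each miR-103 copy. The part of this difference in the order was not tested. Mir107 had 99.9 times the reads of Mir103-2 in replicate 1 (exact 95% interval 81.6 to 124) and 138 times in replicate 2 (104 to 187). Mir103-2 had 10.6 times the reads of Mir103-1 in replicate 1 (5.33 to 23.8) and 6 times in replicate 2 (2.81 to 14.7). Both copies produce the same miR-103-3p, and whether the reads placed at them came from the 3p or the 5p strand cannot be told from counts per hairpin.

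Of the 9592 reads of the 3 genes in replicate 1, 98.9% were at Mir107 (exact 95% interval 98.7 to 99.1), and of the 6685 in replicate 2, 99.2% (98.9 to 99.4). The share did not differ between the libraries beyond counting error (two-sided Fisher's exact test, p = 0.13, adjusted p = 0.25 over 2 such tests), nor did the ratio of Mir103-2 to Mir103-1 (p = 0.29, adjusted p = 0.29). Together the 3 genes had 2587 ± 306 CPM (SD, n = 2), of which Mir103-1 and Mir103-2 made up 25.1 ± 7.45 CPM. These shares hold among assigned reads and do not measure how much miR-103 the tissue held. Full-length miR-103-3p reads match both copies and would belong to the reads that fit several places, whose number was 426 times that of the Mir107 reads in replicate 1 and 492 times in replicate 2. How many of them came from miR-103 was not measured.

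By mean CPM, Mir107 was the 54th of the 389 detected genes (49th in replicate 1 and 58th in replicate 2) and stood well above their median of 105 CPM. Among the 159 detected genes (40.9%) in an intron of a protein-coding gene on the same strand, it was the 20th. Among the 1087 genes that share 20 bases with a microRNA gene elsewhere, it was the 10th, and 81 of those genes were detected. Next above it was Mirlet7f-2 (2713 ± 230 CPM) and next below it Mir760 (2469 ± 52.8 CPM), and neither differs from Mir107 beyond the spread of the libraries. In all, 22 of the other 388 detected genes had a range between libraries that overlapped its own.

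Mir103-2 was the 278th detected gene by mean CPM, and the ranges of 62 of the other 388 overlapped its own. Its neighbours in that order, Mir344b (22.6 ± 16.2 CPM) and Mir669l (22.2 ± 10.3 CPM), do not differ from it beyond their spread. Mir103-1 was at place 429 of all 2202 genes.

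Genes with the most similar values were found by the straight-line distance between log2(CPM + 1) in the 2 libraries, a description that rests on 2 values per gene. Closest to Mir107 were Mir219a-2 (distance 0.21; 2819 ± 223 CPM), an oligodendrocyte microRNA, Mir760 (0.21) and Mir342 (0.22; 2370 ± 22.1 CPM), which lies in an intron of Evl. Closest to Mir103-2 were Mir669l (0.20), Mir18 (0.25; 24.9 ± 6.58 CPM), a member of the miR-17 to miR-92 cluster, and Mir3070b (0.41; 19.9 ± 1.59 CPM).

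**Figure D4:**
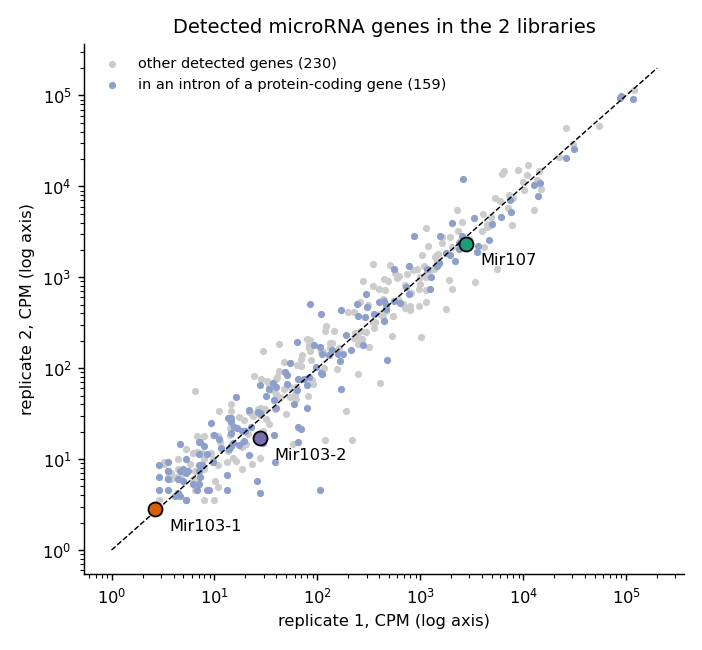
CPM of each detected microRNA gene in replicate 1 (x, log axis) and replicate 2 (y, log axis), with genes in an intron of a protein-coding gene in blue (159 genes) and the line of equal CPM dashed. Mir107 and Mir103-2 lie below the line at 2773 against 2350 CPM and at 27.8 against 17.0 CPM, and Mir103-1, with 9 and 8 reads, is drawn although it is not among the detected genes.

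Both detected members were lower in replicate 2 than in replicate 1. The log2 ratio of replicate 2 over replicate 1, on reads scaled by TMM (a scaling that assumes most genes to be alike), was -0.34 for Mir107 (exact 95% interval -0.38 to -0.29), a 1.26-fold difference (exact binomial test on reads, Benjamini-Hochberg adjusted p = 3.25e-48). For Mir103-2 it was -0.80 (-1.34 to -0.29), a 1.75-fold difference (exact binomial test, adjusted p = 0.0024). For Mir103-1, outside the tests, it was 0.010 (-1.56 to 1.56) and, with DESeq2 size factors, -0.043, so its 9 and 8 reads fix no direction. The same test called 263 of the 389 genes (67.6%), 131 of them (33.7%) lower in replicate 2 and 132 higher. A call at both tested members thus says nothing particular to them. The median log2 ratio over all tested genes was 0.053 and the median of its absolute value 0.52, and 65.0% of tested genes differed by at least as much as Mir107, 31.4% by at least as much as Mir103-2.

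Against the spread between libraries, in place of counting error, neither member passed the threshold. The edgeR exact test with the common biological coefficient of variation of the libraries (0.41) gave an adjusted p of 1 for Mir107 and for Mir103-2. It called 2 of 389 genes (0.514%), with 23 at an unadjusted p under 0.05. Its error comes from the same libraries it compares, so it does not show that the members were equal in both. Shares of several marker sets also differed between the libraries. Choroid plexus and ependymal markers (5 of 5 detected) took 0.342% of assigned reads in replicate 1 and 0.164% in replicate 2, with 3 called lower and 1 higher in replicate 2. Microglial and leukocyte markers (4 of 4 detected) took 0.259% and 0.192%, with 3 called lower. The endothelial Mir126a took 0.787% and 0.746% and was called lower. Oligodendrocyte markers (2 of 3 detected) moved the other way in sum, from 0.503% to 0.667%, with 1 called higher and 1 lower. Neuron markers (4 of 7 detected) took 2.86% and 2.71%, with 1 called higher and 3 lower. Erythroid markers (3 of 3 detected) took 0.0048% and 0.0060%, with 1 called higher. Muscle and liver markers (2 of 6 detected) took 0.0051% and 0.0050%, with 0 called. These calls are from the binomial test, which called 132 of all 389 tested genes higher and 131 lower. The part of cell makeup in the ratios of Mir107 and Mir103-2 was not tested.

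After a straight-line correction for hairpin GC content across genes, the ratios were -0.23 for Mir107 (adjusted p = 1.70e-22) and -0.65 for Mir103-2 (adjusted p = 0.018, exact binomial test for both).

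**Figure D5:**
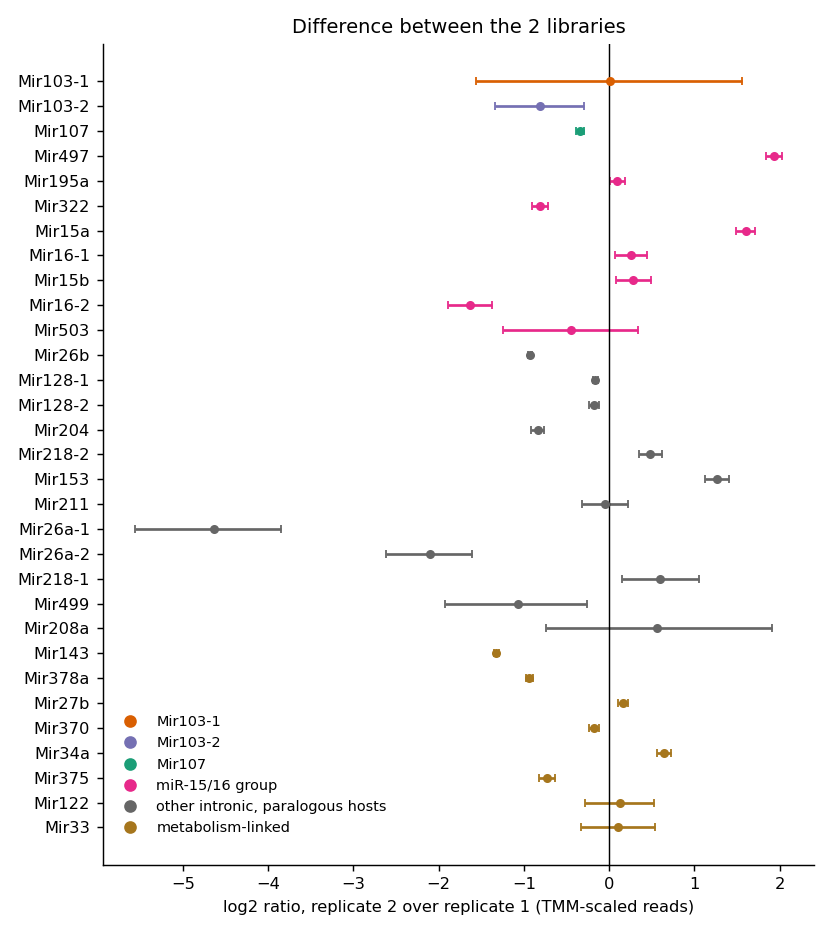
Log2 ratio of replicate 2 over replicate 1 on TMM-scaled reads (x axis) with exact 95% counting intervals for the 3 genes and for the detected genes of 3 related lists. Mir107 lies at -0.34 and Mir103-2 at -0.80, while the miR-15/16 group spreads from -1.63 to 1.93.

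The nearest relatives by seed are the miR-15/16 group, known for restraining the cell cycle and survival. Its listed members, with the exception of miR-503, have a seed (AGCAGCA) that holds the same bases shifted by 1 position. One of them, from the gene Mir16-1 on chromosome 14 and Mir16-2 on chromosome 3, shows the shift:

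miR-16-5p: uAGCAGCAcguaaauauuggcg

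Of the 9 measured genes on this list 8 were detected, between 9.66 and 876 CPM with a median of 369. The lowest of the detected genes was Mir503. Mir6342, Mir6353 and Mir6419 also carry the seed AGCAGCA but were not on the list. In both libraries Mir107 had more assigned reads than each of the 8 detected genes. Mir497 had 344 and 1407 CPM, Mir195a had 716 and 820, Mir322 had 800 and 488, and Mir15a had 277 and 901. The summed share of the group was 0.256% of assigned reads in replicate 1 and 0.400% in replicate 2, against 0.277% and 0.235% for Mir107 alone. Mir107 thus had more assigned reads than the group in replicate 1 and fewer in replicate 2. Full-length miR-16-5p occurs at both Mir16-1 and Mir16-2, so its reads may be among those without a gene name. The comparison therefore does not rank the amounts in the tissue. Between the libraries, 5 of the 8 were called higher in replicate 2 and 2 lower, and their median log2 ratio was 0.18. Of all 389 tested genes, 132 were called higher and 131 lower.

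A chosen list of other intronic microRNAs with paralogous hosts, a layout shared with the Pank genes, held 13 genes. It does not come from a search of all such genes, and not every host has its paralogue on the list. Of the 13 genes 12 were detected, with a median of 189 CPM. Mir26b, in Ctdsp1, a small phosphatase gene, had 10885 ± 4328 CPM, and Mir128-1, a neuronal microRNA in R3hdm1, had 7201 ± 219 CPM. Those were the members of the list above Mir107. Mir128-2, in Arpp21, had 1489 ± 60.3 CPM, and Mir204, in Trpm3, had 985 ± 348 CPM. In replicate 2, 3 of the 12 were called higher and 7 lower (median log2 ratio -0.17), beside 132 higher and 131 lower of all 389 tested genes. Mir26a-2 overlaps an annotated exon of Ctdsp2 and is the list's exception to an intronic position.

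Some pairs of copies on that list also share a mature strand. Mir128-1 and Mir128-2 share miR-128-3p and together had 30412 and 23954 reads, Mir218-1 and Mir218-2 share miR-218-5p and had 928 and 1153, and Mir26a-1 and Mir26a-2 share miR-26a-5p and had 565 and 54. Mir103-1 and Mir103-2 had 104 and 56. Read from its first base, the shared strand matched 1 gene from 22 bases for miR-128-3p, 1 base past its mature length, from 23 bases for miR-218-5p and from 26 bases for miR-26a-5p, against 25 for miR-103-3p. The other strand of each of these genes was specific to its gene. Counts per hairpin do not tell which strand gave the reads, so the part of the shared strand in these counts was not tested.

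The metabolism-linked list holds microRNAs known for roles in lipid and glucose control, as miR-103 and miR-107 have. Of its 9 genes 8 were detected, with a median of 1161 CPM, and Mir143 (9132 ± 5174 CPM) and Mir378a (3594 ± 1433 CPM), in an intron of the mitochondrial regulator gene Ppargc1b, were above Mir107. Mir33, which lies in an intron of Srebf2, the regulator of cholesterol synthesis, had 27.8 and 31.9 CPM, against 27.8 and 17.0 for Mir103-2. Mir802 had no reads. In replicate 2, 2 of the 8 were called higher and 4 lower (median log2 ratio -0.039), beside 132 higher and 131 lower of all 389 tested genes.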

How the data were processed

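As deposited by the authors, each of 2 libraries has a table of raw read counts over microRNA genes, in 3 columns by strand, on mm10 with GENCODE M21 per the text notes deposited with them. The aligner, counting tool, trimming and treatment of copies were not given in the sources used. The column of reads on the gene's strand was used. The 4 rows that name no gene (64.8% and 67.0% of reads) were left out. CPM was computed over assigned reads. Genes with 10 or more reads in each library were compared, all together, by two-sided exact binomial tests against TMM-scaled library sizes (edgeR 4.0.16, R 4.3.3), Benjamini-Hochberg adjusted, with a threshold of 0.05. A quasi-likelihood test needs a contrast, which 1 group does not give. Log2 ratios carry no pseudocount. Intervals and floors cover counting error only, since the reads carry no molecular identifiers. DESeq2 1.42.0 gave alternative size factors. Hairpins were folded with RNAfold 2.7.2 and aligned with Biopython 1.88. Tested on simulated data for the comparison of the libraries (399 genes), the binomial test called 178 of 191 genes changed 2-fold and 7 of 208 unchanged ones. The simulated reads held counting error only (Poisson), without the spread between libraries of the real data (coefficient of variation 0.41). These rates therefore do not give the false calls of the binomial test in the real libraries. Named genes are the 3 members, up to 4 genes of highest CPM per list and genes sharing 20 bases with a member. For each detected member, the 3 closest genes and those next above and below it by mean CPM were also named. These rules do not cover the copies of miR-124 or Mir503, Mir6342, Mir6353 and Mir6419, which are named too. The copy pairs, Mir33 and Mir802 were named after their values were seen. Members and lists were chosen with earlier results of these data known.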

Additional observations from a re-analysis of the deposited data

How the results depend on the processing

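The calls at Mir107 and Mir103-2 kept their direction and their side of the threshold with library totals, DESeq2 size factors, no minimum count, the column that disregards strand and the GC correction, and Mir107 also with at least 100 reads in both libraries, where Mir103-2 was not tested. With the edgeR exact test neither passed (log2 ratio -0.34 for Mir107 and -0.80 for Mir103-2, adjusted p = 1 for both), and 2 genes were called in place of 263, since its error includes the spread between the libraries. The ratio of Mir103-1, which was not tested, lay between -0.043 with DESeq2 size factors and 0.11 with library totals. With all reads of a table as library size, the mean CPM was 0.931 for Mir103-1, 7.70 for Mir103-2, 876 for Mir107 and 885 for the 3 genes together, as the larger total requires. With the column that disregards strand, Mir103-1 had 2.92 CPM, from the same reads over a smaller total. Stretches of 18 or 22 bases in place of 20 named the same genes as sharing sequence. Counting error is largest for Mir103-1, whose 9 and 8 reads give an interval of -1.56 to 1.56 on the log2 scale. No paired analysis was possible because the design holds 1 group.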

Other observations

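Among the RefSeq mature sequences, 50 occurred at 2 or more genes of the tables, as miR-103-3p does, and 94 genes carry such a sequence, of which 42 were detected. By the summed reads of its genes, miR-103-3p was the 22nd of the 50, with 104 and 56 reads against medians of 21 and 17, and for 17 of them no read was assigned to any copy. Many of these genes also have a strand of their own, so the order does not rank the shared strands.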
